A study of Homo sapiens with 6 samples.

Results

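Oxidative phosphorylation (OXPHOS) genes of the nuclear genome were examined in NSCLC cells before and after MALAT1 knockdown. The members were the protein-coding genes whose symbols name a subunit of NADH dehydrogenase (NDUFA, NDUFB, NDUFC, NDUFS, NDUFV and NDUFAB1), succinate dehydrogenase (SDHA to SDHD), the cytochrome bc1 complex (the UQCR genes and CYC1), cytochrome c (CYCS), cytochrome c oxidase (COX4 to COX8) or ATP synthase (ATP5F, ATP5M and ATP5P). This rule used no measured value and gave 91 of the 46427 genes in the table, with 40 in complex I, 4 in complex II, 10 in complex III, 1 for cytochrome c, 17 in complex IV and 19 in complex V. Without the restriction to protein-coding genes the same symbols matched 200 genes, of which 106 were pseudogenes. RNA-seq libraries of total RNA came from 3 established lung cancer lines, H460, H1299 and A549, with 1 control library and 1 library after si-MALAT1 transfection for each line. MALAT1 is a long nuclear noncoding RNA, and si-MALAT1 is a small interfering RNA directed against it. The labels give the controls as untreated; the methods also mention si-Control cells without saying which cells were sequenced. Effects of transfection itself and of the loss of MALAT1 therefore cannot be told apart. The question was how the expression of these subunit genes differed after MALAT1 knockdown.

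The respiratory chain lies in the inner mitochondrial membrane. Complex I and complex II pass electrons from NADH and succinate to ubiquinone, complex III passes them on to cytochrome c, and complex IV hands them to oxygen. Complexes I, III and IV pump protons, and complex V uses the proton gradient to make ATP. Complex II is encoded by nuclear genes alone, whereas the other complexes join nuclear subunits with subunits made inside the mitochondrion from mitochondrial DNA. Cancer cells are known to differ in how far they rely on this pathway or on glycolysis.

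The libraries held 42506818 to 68515992 read counts, and the members took 0.833% to 1.05% of them. MALAT1 itself had 231045 reads in the control and 43858 after si-MALAT1 in H460, 407551 and 47935 for H1299, and 93747 and 14447 for A549. These are log2 fold changes of -2.32, -2.96 and -2.84, so each library labelled si-MALAT1 lay below its control. The keratins KRT8 and KRT18 were detected in every library at 123 TPM (a level scaled for transcript length and depth) or more, and had log2 fold changes of -1.16 and -1.23 after si-MALAT1 in A549. KRT19 was at 550 and 399 TPM in control and si-MALAT1 of H460 and at most 2.23 TPM in H1299 and A549. Its log2 fold changes were -0.33, -0.16 and 1.3 for H460, H1299 and A549, the last from 44 and 121 reads. EPCAM stayed at or below 8.04 TPM, with log2 fold changes of 1.33, 0.99 and 1.16 in the same order. CDH1 was at 27.8 TPM or more in A549 and at most 0.0468 TPM in H460 and H1299. Markers of leukocytes and endothelium were at or near 0, with no read of PTPRC and at most 0.0221 TPM of PECAM1, and the fibroblast genes DCN and COL1A1 reached at most 0.0731 and 2.03 TPM. In bulk RNA a smaller share of cells and less RNA per cell cannot be told apart.

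Most members were expressed at high levels in all 3 lines. Of the 91 members, 88 had at least 1 read and 85 had a read in each of the 6 libraries, and 82 of those 85 had a mean count of at least 50. The median member had a mean level of 88.1 TPM, compared with 9.49 TPM for the protein-coding genes read in each library. It stood at the percentile 94.7 of those 12834 genes. In sum the members made up 9141 TPM and 10075 TPM in control and si-MALAT1 of H460, 10680 and 10248 TPM for H1299, and 11280 and 12052 TPM for A549. The summed level was thus higher after knockdown in H460 and A549 and lower in H1299, by log2 ratios of 0.14, 0.10 and -0.06. Against the normalised counts used below, the TPM scale shifted the difference of si-MALAT1 minus control by a median of -0.14 for H460, 0.07 for H1299 and -0.01 for A549 on the log2 scale, over genes with at least 10 reads.

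Complex V and complex I held the largest shares of the summed level. In the controls, complex I took 30.9% to 32.5% of the members' TPM, complex V 29.8% to 32.6%, complex IV 24.0% to 26.1%, complex III 8.86% to 9.54% and complex II 2.42% to 2.65%. The share of complex I was higher after si-MALAT1 than in the control of the same line in each line, at 33.1%, 34.5% and 33.9% for H460, H1299 and A549. The share of complex IV was lower in each line, at 22.0%, 24.5% and 23.8%. With 1 library per line and condition these shares have no replicate check.

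**Figure D1:**
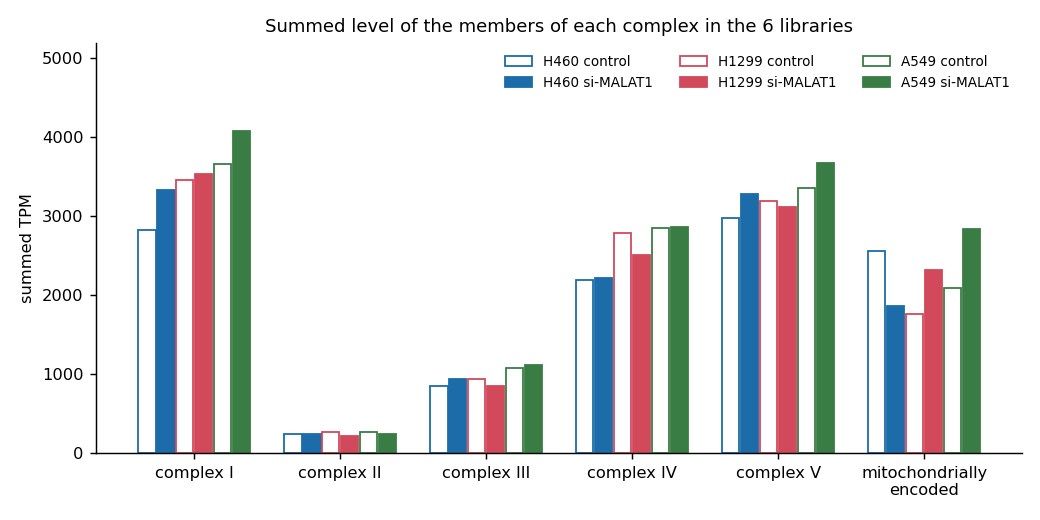
Summed TPM (y axis) of the nuclear-encoded members of each complex and of the 13 mitochondrially encoded subunits (x axis) in the 6 libraries, with open bars for controls and filled bars for si-MALAT1. Complex I stands between 2827 and 4083 TPM, and the mitochondrially encoded bar is lower after si-MALAT1 in H460 and higher in H1299 and A549. COX1 and COX3 hold most of the reads behind the mitochondrially encoded bar.

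The highest subunit stood apart from the next in complexes III and V, and lay close to the next in complexes I and IV. ATP5F1B, the catalytic beta subunit of ATP synthase, was the highest member, with 778 and 708 TPM in control and si-MALAT1 of H460, 521 and 429 TPM for H1299, and 581 and 566 TPM for A549. The next in complex V was ATP5F1A, at a mean of 359 TPM. COX6A1, the widely expressed form of a regulatory subunit of cytochrome c oxidase, led complex IV at a mean of 377 TPM. It was close to COX7C at 372 TPM and COX8A at 368 TPM. UQCRH, the hinge protein of complex III, led its complex at 325 TPM, with CYC1 next at 158 TPM. NDUFA1, an accessory subunit of complex I, led at 231 TPM, close to NDUFB9 at 213 TPM. SDHB, the iron-sulfur subunit of complex II, had 106 TPM and SDHC, a membrane anchor of the same complex, 19.3 TPM. CYCS, the mobile electron carrier, had a mean of 39.5 TPM. These ranks depend on the transcript length that TPM divides by. UQCRB had a mean of 9370 reads against 9068 for UQCRH, but 22.6 TPM, at lengths of 8469 and 551 bases. Whether the annotated lengths hold in these cells was not tested.

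Several members have a paralogue that is known for use in particular tissues. The muscle or tissue-restricted forms COX4I2, COX7A1 and COX8C had no read in any library, where a count of 0 allows up to 3 reads per library for counting error. COX6A2, the heart and muscle form, had 5 and 2 reads in the H1299 libraries and none in the others. COX7B2, a form best known from testis, had no read in H460 and A549. In H1299 it had 732 reads in the control and 893 after si-MALAT1, which is 21.7 and 30.8 TPM. Its level was 38.8% of the COX7B level in the H1299 control and 58.4% after si-MALAT1. The COX7B2 locus (Gene ID 170712) spans positions 46734827 to 46909266 of chromosome 4 (GRCh38, minus strand). COX7B itself had 55.9 and 70.2 TPM for H460, 55.8 and 52.7 TPM for H1299, and 74.2 and 79.3 TPM for A549. Its count was higher in A549 than in H1299 by a log2 difference of 0.55 (adjusted p = 0.0423, edgeR contrast of the lines).

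NDUFA4L2, a hypoxia-inducible paralogue of NDUFA4, was highest in H460. It had 234 and 309 reads in H460 control and si-MALAT1, 19 and 17 for H1299, and 19 and 6 for A549. The H460 libraries lay above the other 4, and its level there was 4.34% and 4.33% of that of NDUFA4. NDUFA4 is named for complex I but is now counted as a subunit of complex IV. COX6B2, another testis-associated form, had 11 to 48 reads, against 5307 to 12877 for COX6B1 across the libraries. UQCRHL, a retrocopy of UQCRH, had 17 to 39 reads, or 0.191% to 0.484% of the UQCRH count. Reads of near-identical copies can be split in counting, so UQCRHL and ATP5MGL, a copy related to ATP5MG with 1 to 37 reads, are uncertain. The 106 pseudogenes together held 0.106% to 0.206% of the members' count.

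**Figure D2:**
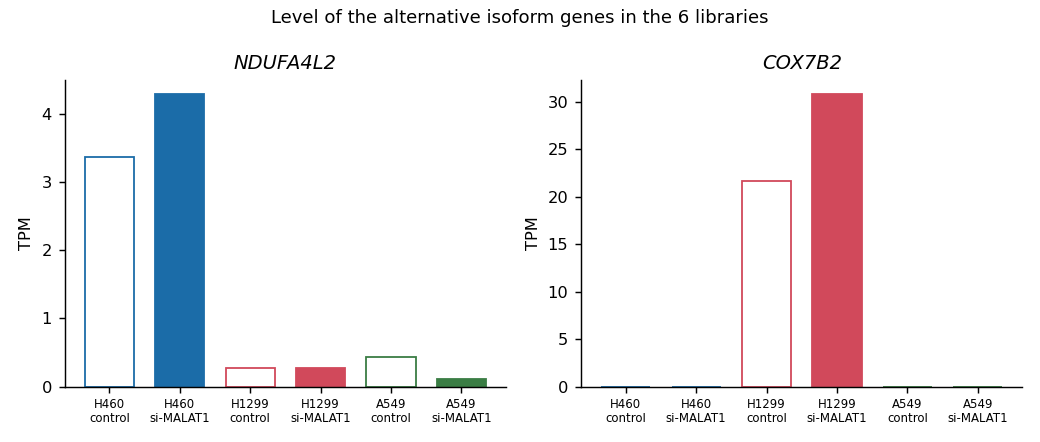
TPM (y axis) of NDUFA4L2 and COX7B2 in the 6 libraries (x axis), with open bars for controls and filled bars for si-MALAT1. NDUFA4L2 reached 3.37 and 4.29 TPM for H460 and at most 0.436 TPM elsewhere, and COX7B2 was read in H1299 alone, at 21.7 and 30.8 TPM.

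After MALAT1 knockdown the subunit genes were mostly higher in H460 and A549 and mostly lower in H1299, by small amounts. Values here are log2 fold changes of the normalised read count plus 1, si-MALAT1 minus control. The median over the 85 members was 0.31 for H460, -0.08 for H1299 and 0.16 for A549, beside 0.02, 0.02 and 0.01 over the 17834 genes read in each library. In H460, 79 of 85 members were higher, against 51.9% of all genes. In A549 it was 65 members, against 50.7% of all genes. In H1299 it was 33 members, against 51.9% of all genes. The H1299 value was the lowest of the 3 lines for 74 members, or 87.1%, compared with 34.7% of all genes. These shares of all genes were not matched for transcript length. Among protein-coding genes of the shortest length decile, which holds 58 members, 70.2% were higher for H460, 31.3% for H1299 and 48.9% for A549. The negative median in H1299 became 0.07 when each gene was set against protein-coding genes of like transcript length. After that centring, 74 members lay above 0 for H460, 51 for H1299 and 66 for A549. How often H1299 stayed the lowest line after centring was not counted. These comparisons rest on 1 library pair per line and were not tested.

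Few members passed a fold change of 1.5. In H460, 3 members were higher by that much (9.5% of all genes were) and 1 was lower (10.3%). In H1299, 2 were higher (11.7%) and 2 were lower (11.4%). In A549, 2 were higher (11.5%) and 1 was lower (11.4%). Most of these were copies with few reads, namely UQCRHL, ATP5MGL, COX6B2 and NDUFA4L2, or the readthrough locus ATP5MF-PTCD1. NDUFB2 and UQCR10 in H460 and COX6A1 in H1299 were the others. The shares of all genes were not matched for level, and the members are mostly highly expressed. Of the 12834 protein-coding genes read in each library, 850 were higher and 886 lower by that much in H460. The numbers were 1341 and 1119 in H1299 and 1052 and 1198 in A549. No member passed a fold change of 1.5 in the same direction in the 3 lines, where 1.19% of all genes were higher and 1.28% lower. At any size, 30 members, or 35.3%, were higher in 3 of 3 lines, compared with 21.4% of all genes, and 2 members, or 2.35%, were lower in 3 of 3 lines, compared with 18.8%.

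**Figure D3:**
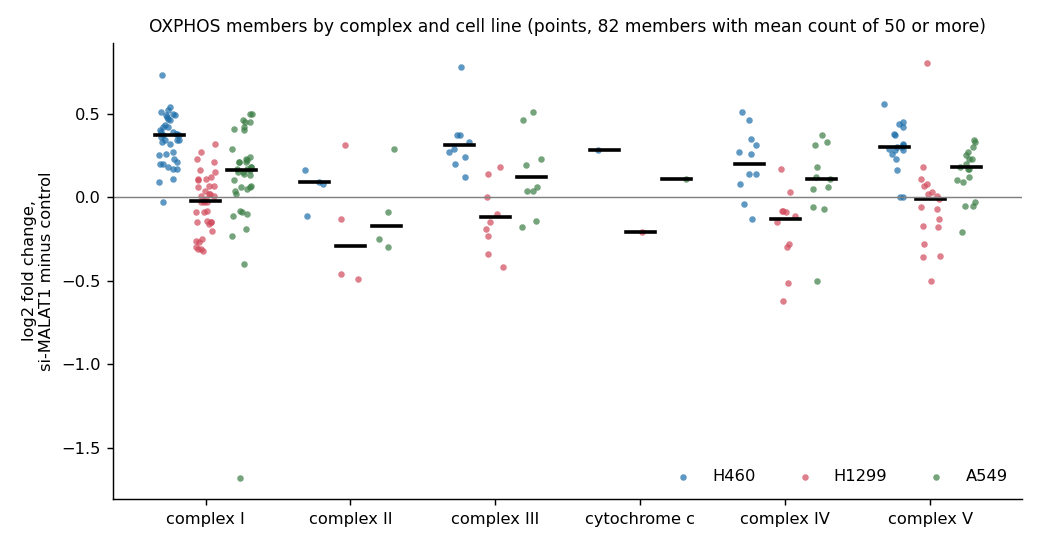
Log2 fold change after si-MALAT1 (y axis) of the 82 members with a mean count of at least 50, by complex (x axis) and cell line (colour), with black bars for the median of the members read in every library. Complex I medians are 0.37 for H460, -0.02 for H1299 and 0.16 for A549, and the lowest point is NDUFA4L2 in A549 at -1.68, which rests on 19 and 6 reads.

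In complex I, 38 of 39 members were higher in H460, 18 were in H1299 and 31 were in A549. The medians were 0.37, -0.02 and 0.16, and the H1299 median became 0.07 on the log2(TPM + 1) scale. The 7 nuclear-encoded core subunits, which make up the electron-transferring arm, had medians of 0.26, -0.08 and 0.16. NDUFV2, a core subunit beside the flavin site, was higher in all 3 lines, with log2 fold changes of 0.38, 0.21 and 0.17. NDUFS8 and NDUFV1, the latter being the flavin subunit, were higher in H460 at 0.26 and 0.17 and lower in H1299 at -0.32 and -0.27 and in A549 at -0.19 and -0.11. The 30 accessory subunits other than NDUFA4 and NDUFA4L2 were all higher in H460, from 0.09 to 0.73, while 15 were higher in H1299 and 26 were in A549. The readthrough locus NDUFC2-KCTD14 had 0 and 3 reads in H460, 18 and 30 for H1299, and 28 and 21 for A549, and was left out of the members read in every library.

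Complex II did not follow complex I. Its medians were 0.09, -0.29 and -0.17, with 3, 1 and 1 of its 4 genes higher in H460, H1299 and A549, and the H460 median became -0.03 after centring by length. SDHB had normalised counts of 5805 and 6162 for H460 control and si-MALAT1, 5638 and 4112 for H1299, and 5530 and 4501 for A549. SDHD, a membrane anchor, had 5188 and 5785 for H460, 6031 and 4291 for H1299, and 4848 and 4077 for A549. Both were higher with si-MALAT1 in H460 and lower in H1299 and A549. SDHC, the other anchor, had 4274 and 3956, 2547 and 3167, and 2697 and 3305 in the same order, the opposite direction in each line. SDHA, the flavin subunit, had log2 fold changes of 0.08, -0.13 and -0.09. None of the 4 was called in the paired test, and the lowest of their adjusted p-values in edgeR was that of SDHB, at 0.479.

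In complex III the medians were 0.31, -0.12 and 0.12, and all 10 members were higher in H460. The electron carriers CYC1 (cytochrome c1) and UQCRFS1 (the Rieske iron-sulfur protein) had log2 fold changes of 0.20 and 0.29 for H460 and of -0.42 and -0.19 for H1299. In A549, CYC1 had -0.14 and UQCRFS1 0.19. The 5 small subunits ranged from 0.24 to 0.78 for H460, from -0.34 to 0.18 for H1299 and from -0.18 to 0.51 for A549. CYCS had 0.28, -0.21 and 0.11.

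In complex IV the medians were 0.20, -0.13 and 0.11 over 12 members, of which 9 were higher in H460, 2 were in H1299 and 9 were in A549. The H460 median became 0.06 both on the log2(TPM + 1) scale and with centring by length, where 7 of the 12 were higher. COX8A, a small structural subunit, had 0.35 for H460, -0.51 for H1299 and 0.05 for A549. COX7A2L, which is known for joining complexes III and IV into supercomplexes, had 0.08, 0.17 and 0.37. COX6C had 0.51, 0.03 and 0.31. COX6C and COX7A2L were the only complex IV members with a positive value in the 3 lines.

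In complex V the medians were 0.30, -0.01 and 0.18, with 18, 9 and 15 of 19 members higher. The H1299 median became 0.04 on the log2(TPM + 1) scale. Among the F1 subunits, which form the catalytic head, ATP5F1A had 0.44, 0.02 and 0.34 and ATP5F1B had 0.00, -0.35 and -0.03. These encode the alpha and the beta subunit, which are used in equal number. ATP5MC1, ATP5MC2 and ATP5MC3 encode the same mature c subunit of the rotor ring with different import sequences. ATP5MC2 had 0.30, 0.11 and 0.25, ATP5MC3 had 0.45, -0.13 and 0.23, and ATP5MC1 had 0.29, -0.50 and -0.21. The 4 stator subunits were higher in H460, from 0.23 to 0.37, and in A549, from 0.12 to 0.27. The readthrough ATP5MF-PTCD1 had 970 and 1545 reads in H1299, a log2 fold change of 0.80 (95% counting interval 0.69 to 0.92), while ATP5MF had 9258 and 6975 reads there. How reads were divided between a readthrough locus and its partner genes is not given in the sources used here.

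The members that kept one direction in the 3 lines were led by UQCR10, NDUFB2, NDUFA12 and ATP5F1E on the higher side, and were COX6A1 and NDUFS1 on the lower side. Error ranges within a line are exact 95% Clopper-Pearson intervals on the split of reads between the 2 libraries, and they cover counting error only. UQCR10, a small subunit of complex III (Gene ID 29796, chromosome 22 from 29767369 to 29770413, plus strand), had normalised counts of 2021 and 3463 in control and si-MALAT1 of H460. They were 2146 and 2436 for H1299 and 2558 and 3650 for A549. Each si-MALAT1 library was above its control. The log2 fold changes were 0.78 with an interval of 0.70 to 0.85, 0.18 with 0.11 to 0.26, and 0.51 with 0.43 to 0.60, with a mean of 0.49 ± 0.30 (SD, n = 3 lines).

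NDUFB2, an accessory subunit of complex I (chromosome 7 from 140696708 to 140706643, plus strand), had 2447 and 4057 normalised counts in H460, 2575 and 2788 for H1299, and 3244 and 4583 for A549. Its values were higher after si-MALAT1 in each line, with a mean log2 fold change of 0.45 ± 0.31 (SD, n = 3 lines). The annotated gene overlaps NDUFB2-AS1 on the opposite strand, and whether counting used the strand is not given in the sources used here. NDUFA12, an accessory subunit of complex I (chromosome 12 from 94971328 to 95003713, minus strand), had 2405 and 3236 for H460, 4827 and 5806 for H1299, and 2743 and 3630 for A549. Its 3 values were the most even of the 4, at 0.43, 0.27 and 0.40. ATP5F1E, the epsilon subunit of the F1 head (chromosome 20 from 59025475 to 59032335, minus strand), had 20388 and 30090, 10571 and 11938, and 10706 and 13219 in the same order. It overlaps the readthrough SLMO2-ATP5E on the same strand and TUBB1 on the other.

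COX6A1 (Gene ID 1337, chromosome 12 from 120438113 to 120440730, plus strand) was lower after si-MALAT1 in each line. Its normalised counts were 13142 and 12032 for H460, 8655 and 5629 for H1299, and 12177 and 8592 for A549. The log2 fold changes were -0.13 (-0.16 to -0.09), -0.62 (-0.67 to -0.58) and -0.50 (-0.55 to -0.46), with a mean of -0.42 ± 0.26 (SD, n = 3 lines). The control and si-MALAT1 groups overlapped, since the H460 library after knockdown lay above the H1299 control. They overlapped for UQCR10, NDUFB2, NDUFA12 and ATP5F1E as well. For UQCR10 the H1299 library after knockdown (2436) lay below the A549 control (2558). NDUFS1, the largest core subunit of complex I, had 18132 and 17708, 9265 and 9200, and 12010 and 10259, a mean log2 fold change of -0.09 ± 0.12 (SD, n = 3 lines). Its H1299 interval of -0.05 to 0.03 included 0.

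**Figure D4:**
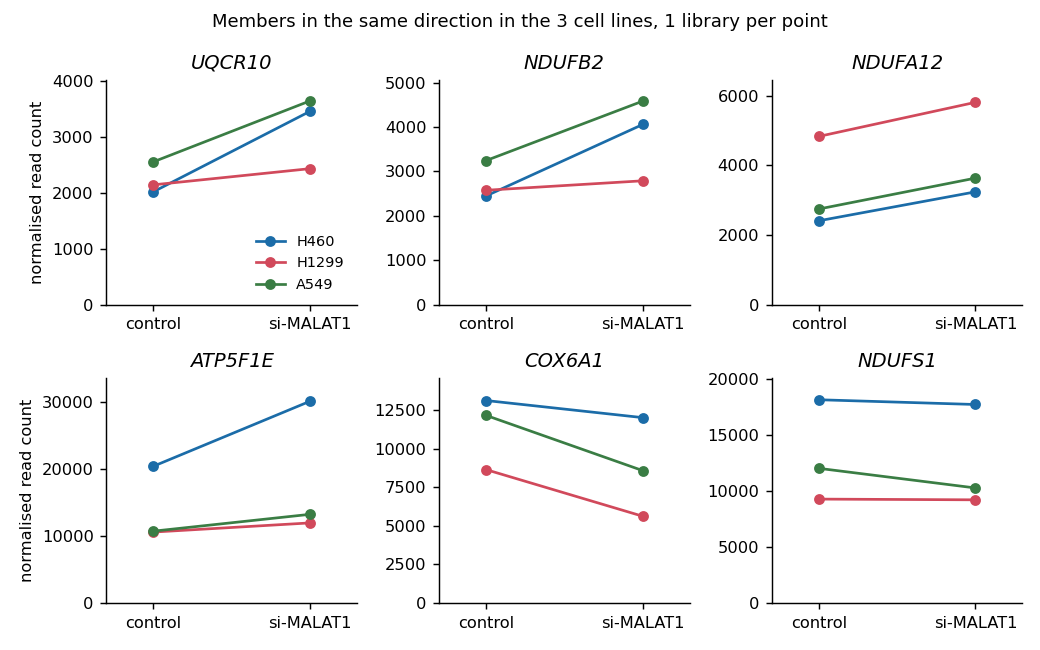
Normalised read count (y axis) in the control and si-MALAT1 library (x axis) of each cell line (colour) for the 6 members with one direction in the 3 lines that were described above. UQCR10, NDUFB2, NDUFA12 and ATP5F1E are higher after si-MALAT1 in each line and COX6A1 and NDUFS1 are lower, and the NDUFS1 lines are close to flat in H460 and H1299.

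A paired edgeR quasi-likelihood test over the 3 lines, blocked by cell line, called no member among 85 tested at an adjusted p under 0.05. The same test called 1 of 19122 genes, or 0.00523%. The unadjusted p was under 0.05 for 10 members, 9 of them higher and 1 lower, or 11.8%, compared with 15.0% of all genes. The lowest adjusted p of a member was 0.212, for UQCR10, and the values of NDUFA12, COX6A1, NDUFB2, ATP5F1E and NDUFS1 were 0.214, 0.227, 0.254, 0.294 and 0.712. Among 82 members with an adjusted p, DESeq2's Wald test on the same design gave 3 as higher, against 5.3% of its 13117 genes, and 1 as lower, against 4.86%. The 3 were NDUFA12 (adjusted p = 0.0106), NDUFB5 (0.019) and UQCR10 (0.0483), and the 1 lower member was COX6A1 (0.0467). NDUFB5, an accessory subunit of complex I named here because DESeq2 called it, had 4446 and 5629, 5354 and 6292, and 3594 and 4793 normalised counts in H460, H1299 and A549.

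The promoters of UQCR10, NDUFB2 and NDUFA12, the 3 members with the highest mean log2 fold change among those with one direction in the 3 lines and a mean count of at least 50, and of COX6A1, the lowest of that kind, are shown to place them beside the factors known for nuclear OXPHOS genes. The promoters are RefSeq sequences on GRCh38.p14 from 250 bases before to 50 after the start of the gene, written 5′ to 3′ along the strand of the gene. Capitals mark the letters searched for on both strands, GCGCATGC or GCGCACGC for NRF1, CCGGAAG for ETS factors such as GABP, and AANATGGC for YY1. UQCR10 has a YY1 match, NDUFA12 has an NRF1 match, NDUFB2 has none, and COX6A1 has 2 NRF1 matches, 1 ETS match and 1 YY1 match.
UQCR10, chr22:29767119-29767418, plus strand: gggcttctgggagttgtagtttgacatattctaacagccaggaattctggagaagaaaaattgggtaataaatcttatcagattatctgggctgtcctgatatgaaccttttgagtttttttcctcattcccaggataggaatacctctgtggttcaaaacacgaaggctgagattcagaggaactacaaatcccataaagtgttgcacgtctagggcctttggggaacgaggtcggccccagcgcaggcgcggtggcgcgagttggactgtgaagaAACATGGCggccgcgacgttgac
NDUFB2, chr7:140696458-140696757, plus strand: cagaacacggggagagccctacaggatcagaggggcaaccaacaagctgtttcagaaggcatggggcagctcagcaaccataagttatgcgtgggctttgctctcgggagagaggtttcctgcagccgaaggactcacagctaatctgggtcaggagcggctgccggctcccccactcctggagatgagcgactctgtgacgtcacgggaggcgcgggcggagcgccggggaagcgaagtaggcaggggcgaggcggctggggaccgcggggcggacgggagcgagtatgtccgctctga
NDUFA12, chr12:95003648-95003947, minus strand: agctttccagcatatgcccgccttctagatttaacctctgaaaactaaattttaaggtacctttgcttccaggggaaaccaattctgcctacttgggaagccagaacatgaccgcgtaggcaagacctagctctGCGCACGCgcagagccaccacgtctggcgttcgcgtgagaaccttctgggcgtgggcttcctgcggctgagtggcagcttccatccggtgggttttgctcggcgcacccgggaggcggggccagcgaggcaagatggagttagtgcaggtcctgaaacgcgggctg
COX6A1, chr12:120437863-120438162, plus strand: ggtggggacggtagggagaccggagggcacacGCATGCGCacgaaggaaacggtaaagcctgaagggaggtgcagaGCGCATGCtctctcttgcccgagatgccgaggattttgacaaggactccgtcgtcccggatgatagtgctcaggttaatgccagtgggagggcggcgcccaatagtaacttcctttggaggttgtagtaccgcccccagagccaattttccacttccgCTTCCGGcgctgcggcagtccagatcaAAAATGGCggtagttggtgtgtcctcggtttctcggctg

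A promoter was found in the table for 73 of the 91 members. NRF1 letters were present in 20 of them, or 27.4%, compared with 8.61% of 15842 promoters of protein-coding genes. YY1 letters were present in 30.1% compared with 7.92%, and ETS letters in 27.4% compared with 14.2%. The GCGCACGC spelling for NRF1 and the AANATGGC spelling for YY1 were chosen after values or sequences were seen. The NRF1 and YY1 shares are therefore not an independent comparison of members with other promoters. The letters GGGCGGG, a core recognised by SP1, were present in 26.0% compared with 44.4%. The medians with NRF1 letters were 0.29, -0.09 and 0.17 for H460, H1299 and A549, and without them 0.32, -0.08 and 0.13. With YY1 letters they were 0.31, -0.08 and 0.18, and without them 0.30, -0.08 and 0.12. With ETS letters they were 0.32, -0.12 and 0.05, and without them 0.30, -0.03 and 0.18. With the SP1 core they were 0.38, -0.03 and 0.18, and without it 0.27, -0.09 and 0.12. These medians were not tested against each other. A match is a description of the letters and not of binding.

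Members were also compared between the lines. In edgeR's contrasts of H1299 with H460, 11 of 85 members (12.9%) were higher and 29 (34.1%) lower in H1299, where 26.0% and 26.6% of all genes were called. Comparing A549 with H460, 12 (14.1%) were higher and 8 (9.41%) lower in A549, against 18.9% and 19.3% of all genes. Comparing A549 with H1299, 30 (35.3%) were higher and 8 (9.41%) lower in A549, against 24.4% and 24.5%. The median log2 differences of the members were -0.24, -0.05 and 0.28. The 2 libraries of a line stand in for replicates here, after the treatment term. Leaving out single libraries moved the counts by over 1.5 times. Without the H460 control, 5 members were higher in H1299 than in H460 and 3 were higher in A549 than in H460. Without the H1299 control, 5 were higher in H1299 than in H460 and 4 lower in A549 than in H1299. Without the A549 control, 7 were higher in H1299 than in H460, 1 was higher and 2 lower in A549 than in H460, and 9 were higher and 3 lower in A549 than in H1299. Without the H460 si-MALAT1 library, 19 were lower in H1299 and 4 lower in A549 than in H460. Without the H1299 si-MALAT1 library, 11 were higher in A549 than in H1299. Without the A549 si-MALAT1 library, 7 were higher in H1299 than in H460, 3 were higher and 2 lower in A549 than in H460, and 7 were higher and 3 lower in A549 than in H1299.

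H1299 was set apart by low UQCRC2 and CYCS. UQCRC2, a core protein of complex III (chromosome 16 from 21953361 to 21983660, plus strand), had 13017 and 14101 normalised counts in H460, 5002 and 4273 for H1299, and 14029 and 14430 for A549. Neither H1299 library reached the lowest of the others. UQCRC2 was 2.95-fold lower in H1299 than in H460 (adjusted p = 0.000409, edgeR) and 3.09-fold higher in A549 than in H1299 (adjusted p = 0.000425, edgeR). CYCS, with 11816 and 14337, 5795 and 5023, and 13002 and 14042 in the same order, was 2.43-fold lower in H1299 than in H460 (adjusted p = 0.00122, edgeR) and 2.51-fold higher in A549 than in H1299 (adjusted p = 0.00125, edgeR). Both remained called when any 1 of the 6 libraries was left out. UQCRC1, the other core protein of complex III, had 8075 and 9744, 8604 and 8578, and 7773 and 9086, and the lines overlapped.

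Other members separated H460 or A549. NDUFA4L2 was 17.66-fold lower in H1299 than in H460 (adjusted p = 0.00178, edgeR) and 16.78-fold lower in A549 than in H460 (adjusted p = 0.00342, edgeR), from the counts given above. ATP5F1E was 2.23-fold lower in H1299 (adjusted p = 0.00136) and 2.09-fold lower in A549 (adjusted p = 0.00295) than in H460 by edgeR, and the second call was kept in 4 of 6 leave-outs of a library. ATP5F1D, the delta subunit of F1, had normalised counts of 1168 and 1169 for H460, 1085 and 847 for H1299, and 448 and 504 for A549, and was 2.45-fold lower in A549 than in H460 (adjusted p = 0.00281, edgeR). ATP5F1C, the gamma subunit that turns within the head, had 7982 and 9848, 5545 and 5840, and 12989 and 14915, and was 2.46-fold higher in A549 than in H1299 (adjusted p = 0.000703, edgeR). Subunits of one F1 head thus had different orders of the lines. NDUFC2-KCTD14 was called higher in H1299 and in A549 than in H460, where it had 0 and 3 reads, so no fold is given.

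The mitochondrially encoded subunits had medians of the opposite sign from the nuclear members in H460 and, without centring by length, in H1299. Set against genes of like length, both were positive in H1299, at 0.47 for the mitochondrially encoded subunits and 0.07 for the nuclear members. Without that centring, their median log2 fold changes were -0.22 for H460, 0.32 for H1299 and 0.42 for A549, with 1, 12 and 13 of 13 genes higher. Their summed level was 2568 and 1864 TPM in control and si-MALAT1 of H460, 1759 and 2320 TPM for H1299, and 2093 and 2843 TPM for A549. Most of their reads came from COX1 and COX3, with 99581 and 47759 in the H460 control, where the next, COX2, had 5917. The sum therefore rests mainly on these genes and not on the set. Together the 13 took 0.152% to 0.243% of the counts. Whether mitochondrial reads were lost or misassigned was not tested, so this level cannot be compared with that of the nuclear members. CYTB, the complex III subunit of mitochondrial DNA, had -0.41, 0.47 and 0.73. None of the 13 was called by edgeR or by DESeq2 over the 3 lines, and none had an unadjusted p under 0.05 in either.

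The other lists of the pathway are given as counts. Of 50 assembly factors, 34 were higher in H460, 12 were in H1299 and 22 were in A549, with medians of 0.10, -0.20 and -0.05. Of 12 regulators of nuclear-encoded mitochondrial genes, 5, 4 and 6 were higher, with medians of -0.13, -0.19 and -0.04. Of 13 tricarboxylic acid cycle enzymes, 8, 7 and 9 were higher, with medians of 0.07, 0.04 and 0.04. edgeR called no gene of these lists, with 12 assembly factors, 4 regulators and 2 cycle enzymes at an unadjusted p under 0.05, where 15.0% of all genes were. DESeq2 called 1 assembly factor higher and 5 lower, 3 regulators lower, and 1 cycle enzyme higher and 1 lower, where 5.3% of all genes were called higher and 4.86% lower.

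SUCLG2, the GTP-forming beta subunit of succinyl-CoA ligase, was the one gene of these lists past a fold change of 1.5 in the same direction in the 3 lines. Its read counts were 4662 and 2831 for H460, 3430 and 1212 for H1299, and 5444 and 2146 for A549, with log2 fold changes of -0.64, -1.37 and -1.49. The adjusted p was 0.0819 in edgeR and 1.01e-05 in DESeq2. SUCLA2, its ATP-forming counterpart, had 0.41, 0.04 and 0.27. The other DESeq2 calls in counts of 5 or fewer were chosen after their values were seen. DLD, a subunit shared by several dehydrogenases, had 0.35, 0.39 and 0.46 (DESeq2 adjusted p = 0.000226, edgeR 0.192), and COX20, an assembly factor of complex IV, had 0.74, 0.51 and 0.57 (DESeq2 adjusted p = 1.83e-05, edgeR 0.106). The 5 assembly factors called lower by DESeq2 were COA1, NUBPL, COX14, COA6 and ATPAF1, with COA6 at -0.34, -1.06 and -1.11. The 3 regulators called lower by DESeq2 were TFAM, which packages mitochondrial DNA, at -0.32, -1.13 and -0.75, POLRMT, the mitochondrial RNA polymerase, at -0.53, -0.37 and -0.55, and YY1 at -0.34, -0.66 and -0.44. Their edgeR adjusted p-values were 0.136, 0.128 and 0.149. PPARGC1A, a regulator named here for its opposite direction, had 0.65, 0.14 and 1.27 (edgeR adjusted p = 0.244, DESeq2 0.101).

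The members have short transcripts, and log2 fold changes moved with transcript length in these libraries. The median length was 884 bases for the members and 3393 bases for the protein-coding genes read in each library, and 54.1% of members were under 1000 bases compared with 5.05% of those genes. In the shortest length decile of protein-coding genes the median was 0.15 for H460, -0.16 for H1299 and -0.01 for A549, and in the longest decile it was -0.10, 0.25 and 0.04. The 58 members in the shortest decile had medians of 0.33, -0.08 and 0.15, above those of the decile in each line. Among the 82 members with a mean count of at least 50, Spearman's rho between length and log2 fold change was -0.24 for H460, 0.25 for H1299 and 0.10 for A549, given as a description since the genes share libraries. Set against genes of like length, the members' medians were 0.19, 0.07 and 0.17, with 74, 51 and 66 of 85 members above 0. The part of length in the members' values was not tested.

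**Figure D5:**
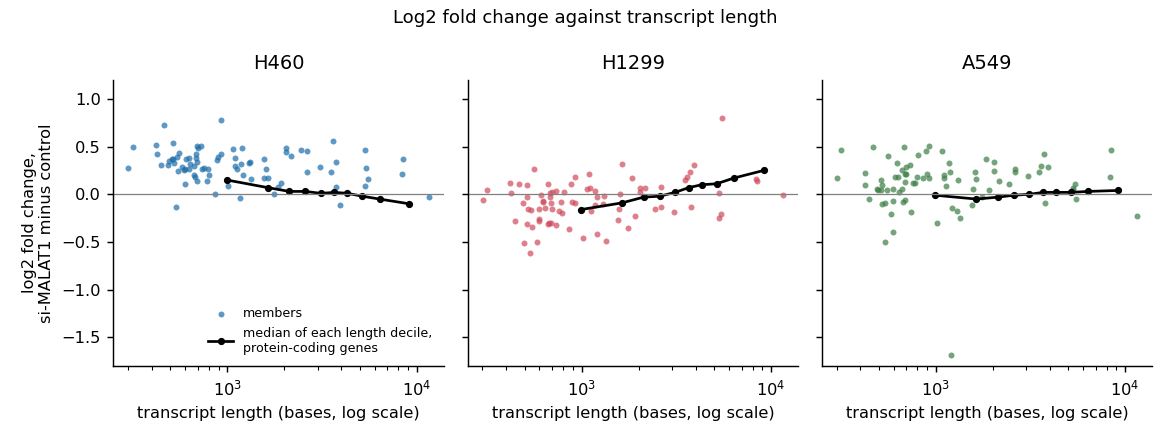
Log2 fold change after si-MALAT1 (y axis) against transcript length in bases (x axis, log scale) in the 3 lines, with 1 coloured point per member with a mean count of at least 50 and black points for the median of each length decile of protein-coding genes. The black line falls from 0.15 to -0.10 for H460 and rises from -0.16 to 0.25 for H1299, and most members lie above its short end in H460 and A549.

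The order of members by log2 fold change was partly shared between lines. Over the 82 members, Spearman's rho was 0.37 for H460 and H1299, 0.44 for H460 and A549, and 0.69 for H1299 and A549. With each gene set against genes of like length, it was 0.37, 0.47 and 0.66. These are descriptions across genes that share libraries. The words TGAATCA and ATGAATC in 3′ UTRs went with lower values in these libraries as a whole. Protein-coding genes with either word had medians of -0.11, -0.04 and -0.13 and those without had 0.05, 0.05 and 0.03. This comparison used these same libraries, was not adjusted for transcript or 3′ UTR length, and was not tested. How the words were picked is not given here, and the comparison is not independent if they came from these libraries. Either word was present in the 3′ UTR of 10 of 84 members, or 11.9%, compared with 17.8% of protein-coding genes. The median 3′ UTR of the members was 198 bases long, compared with 1329 bases. The 10 members with a word had medians of 0.30, 0.08 and 0.21, and the 74 without had 0.31, -0.08 and 0.15.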

How the data were processed

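Total RNA of 6 cultures was measured. The authors trimmed the reads with Trimmomatic, aligned them to GRCh38 with HISAT2 2.1.0, and estimated abundances per gene with StringTie on an NCBI annotation; the submitters' notes give StringTie 1.3.4b and also list hg19. The read counts deposited by the authors are whole numbers and not normalized. The authors' FPKM and TPM are scaled for length and depth. A further 18 value columns are not those of these 6 libraries and were left out.

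Within each line, counts were divided by RLE size factors, 1 was added, and log2 fold changes were taken for genes read in all 6 libraries. There is 1 library per line and condition, so no p-value was computed within a line. Across lines, the paired test was edgeR 4.0.16 (quasi-likelihood, TMM, filterByExpr, cell line as block, 2 residual degrees of freedom) with Benjamini-Hochberg adjustment. Its 85 members tested include NDUFC2-KCTD14 and leave out ATP5MGL, the reverse of the within-line set. Pairs come from the same cell line, and same-numbered libraries deviated together (r of 0.894, 0.922 and 0.884). Line contrasts used the same fit. DESeq2 1.42.0 was the alternative. The edgeR functions were tested on simulated data with planted log2 changes of 2 up or down. That check says nothing about changes as small as those of most members. Transcript length was the length implied by the deposited counts and FPKM, calibrated on GENCODE canonical transcripts; 3′ UTRs came from GENCODE 44. Coordinates are those of the deposited annotation on GRCh38, in which 37 members overlap another gene.

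Named members were those with the largest mean log2 fold change of one sign in the 3 lines (4 per direction, mean count of at least 50), the level extremes of each complex, paralogue pairs, the 3 largest called line differences per contrast, and members at 0 or in readthrough loci. Members and lists were chosen with earlier results of these data known. The grouping of subunits by role, the promoters shown and the GCGCACGC and AANATGGC spellings were chosen after values or sequences were seen. Software was R 4.3.3 and Python 3.11.15 with pandas 2.3.3, numpy 2.4.6, scipy 1.17.1 and matplotlib 3.10.9.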

Additional observations from a re-analysis of the deposited data

Results flagged for a closer look

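The median log2 fold change of the members pointed in opposite directions in different cell lines, at 0.31 for H460, -0.08 for H1299 and 0.16 for A549. Set against genes of like length they were 0.19, 0.07 and 0.17, so the opposite directions were lost. Without that centring, opposite directions were also seen in complex I (0.37, -0.02 and 0.16), complex II (0.09, -0.29 and -0.17), complex III (0.31, -0.12 and 0.12), cytochrome c (0.28, -0.21 and 0.11), complex IV (0.20, -0.13 and 0.11) and complex V (0.30, -0.01 and 0.18), in the order H460, H1299 and A549, of which complex I and complex V in H1299 became positive with that centring, at 0.09 and 0.10, and complex II in H460 became negative, at -0.03. The mitochondrially encoded subunits had -0.22, 0.32 and 0.42. Each line has 1 library pair, so the difference between lines was not tested. Transcript length moved with these values, and its part was not tested.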

How the results depend on the processing

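The median of the members kept its sign in H460 and A549 under TMM scaling, no zero filter, a pseudocount of 10, log2(TPM + 1) and both length centrings. In H460 it was 0.17 on log2(TPM + 1), 0.19 by implied length and 0.20 by canonical length, in place of 0.31, where A549 had 0.13, 0.17 and 0.17. In H1299 it reversed to 0.07 with centring by implied length and to 0.04 with centring by GENCODE canonical length, an alternative added after the data were seen. Complex I in H1299 reversed to 0.07 on log2(TPM + 1), 0.09 by implied length and 0.07 by canonical length, and complex V in H1299 to 0.04, 0.10 and 0.10. Complex II in H460 reversed to -0.03 and 0.00 with the length centrings. The length centrings subtract the median of genes of like length by construction; for log2(TPM + 1) the cause was not tested. The summed level in H460 had a log2 ratio of 0.28 in FPKM, compared with 0.14 in TPM. In the paired test, DESeq2 called 3 members higher and 1 lower where edgeR called 0. The counts in edgeR were 0 and 0 with the replicate block (cell line), without it, and without replicate 1, 2 or 3, which says nothing about stability, since the test called 1 of 19122 genes. Without the block the adjusted p of UQCR10 was 1.0, in place of 0.212. Without a low-count filter, 18 members were higher in A549 than in H1299, in place of 30. Over the 6 leave-outs of 1 library, members higher and lower numbered 5 to 10 and 19 to 31 for H1299 against H460, 1 to 12 and 2 to 11 for A549 against H460, and 7 to 35 and 3 to 11 for A549 against H1299. The lone library left in a line was assumed to vary like the others. Depth of at least 42506818 counts limits members with few reads, while the single pair per line limits the rest.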
